A study of Mus musculus with 10 samples.

Results

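Immediate early genes are transcribed within minutes of a growth, cytokine or stress signal, without new protein synthesis, and the group described here is Fos, Fosb, Jun, Junb, Jund, Egr1, Ier2, Dusp1, Atf3 and Klf6. The members were picked by gene symbol, and 9 of the 10 have a row among the 12791 genes of the authors' deposited table. Atf3, a stress-induced bZIP repressor, was not analysed here.

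The Jun proteins (Jun, Junb and Jund) pair with each other or with Fos proteins (Fos and Fosb) through leucine zippers to form AP-1, a transcription factor dimer, whereas Fos proteins need a Jun partner to bind DNA well. Egr1 and Klf6 are zinc finger transcription factors, Ier2 is a small nuclear protein, and Dusp1 is a phosphatase that switches off the MAP kinases which drive the same genes. In blood-forming cells AP-1 and Egr1 are known for parts in monocyte and macrophage differentiation, and immediate early transcripts are also known to be induced when tissue is dissociated and cells are sorted.

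The study measured, by RNA sequencing, haematopoietic progenitors from the bone marrow of C57BL/6 mice, sorted for c-Kit from lineage-negative cells without Sca-1. The labels give 10 libraries, of which 3 are KDR-positive and 4 KDR-negative cells from mice 4 weeks into growth of the GL261 glioma, and 3 are cells of naive mice without a tumor. KDR, the VEGF receptor 2, was read through a GFP knock-in at its gene, and the design text, which speaks of GFP-positive cells, gives roughly 20000 cells for the RNA of a sample; how the KDR-negative and naive cells were gated is not stated. The labels used here state neither the age of the mice nor whether each library is a separate mouse, so p-values may rest on technical spread alone.

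The authors' deposited table has no value per library and no standard deviation. It gives 2 comparisons, and per gene the log2 fold change, the mean level on the log2 CPM scale (counts scaled to library size) and the raw and adjusted p, under a header that names no groups. A positive fold change means higher in what is called the numerator group, and the denominator group is shared by both comparisons as judged from its derived levels. Which of the 3 labelled groups is which is not stated, so no value below can be assigned to KDR or to the tumor. Levels per group were derived by combining mean and fold change, and an approximate standard error (SE) and 95% interval were worked back from the p-value where it was under 0.5. In the second comparison 43 of 12791 genes (0.336%) had an unadjusted p under 0.05, fewer than evenly spread p-values would give. Intervals worked back from the p-values of that comparison may therefore be too wide. Kit, the receptor of the sort, had a derived level of 38.8 CPM in the first numerator group, 60.3 in the second and 58.6 in the denominator group, and Ly6a, which encodes Sca-1, had 37.2, 27.2 and 27.6 CPM in the same order. Kdr had 2.24, 0.378 and 0.938 CPM in the same order.

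The scale matters for every direction in the first comparison. The derived CPM values summed to 2127130 in its numerator group, against 756537 in the denominator group. Counts scaled to library size alone could not sum this high in the numerator group. The deposited scale therefore holds a further factor, which is not named. Bringing both to equal totals would lower every log2 fold change of that comparison by 1.49 and move the median over all genes to -1.62, where it is -0.13 as deposited. Differences between genes, and the distance of a gene from the median gene, do not depend on this choice.

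To show what the members carry next to their start sites, the 250 bases before the RefSeq start (GRCm38.p6) are given for Jun and Junb, which were called in the first comparison, and for Fos and Dusp1, which were not. The windows lie at chr4:95052223-95052472 (minus strand) for Jun, chr8:84978749-84978998 (minus strand) for Junb, chr12:85473640-85473889 (plus strand) for Fos and chr17:26508473-26508722 (minus strand) for Dusp1. Capitals mark motif matches on either strand, which are the cAMP response element core TGACG (with its full form TGACGTCA), the variant AP-1 site TGACATCA of the Jun promoter and the TATA box TATAAA.
Jun: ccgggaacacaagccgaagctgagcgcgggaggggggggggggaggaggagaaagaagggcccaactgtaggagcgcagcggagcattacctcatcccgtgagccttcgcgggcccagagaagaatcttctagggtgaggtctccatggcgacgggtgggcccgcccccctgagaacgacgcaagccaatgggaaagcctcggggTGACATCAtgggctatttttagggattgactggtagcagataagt
Junb: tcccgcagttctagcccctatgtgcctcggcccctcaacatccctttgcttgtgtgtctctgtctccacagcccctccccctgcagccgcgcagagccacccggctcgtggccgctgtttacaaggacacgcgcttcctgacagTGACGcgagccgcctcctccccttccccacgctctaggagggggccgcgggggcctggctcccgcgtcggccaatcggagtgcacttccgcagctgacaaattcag
Fos: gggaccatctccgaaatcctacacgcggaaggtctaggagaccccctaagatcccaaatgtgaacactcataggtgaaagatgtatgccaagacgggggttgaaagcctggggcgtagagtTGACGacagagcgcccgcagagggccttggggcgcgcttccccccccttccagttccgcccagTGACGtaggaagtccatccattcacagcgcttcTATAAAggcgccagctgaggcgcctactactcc
Dusp1: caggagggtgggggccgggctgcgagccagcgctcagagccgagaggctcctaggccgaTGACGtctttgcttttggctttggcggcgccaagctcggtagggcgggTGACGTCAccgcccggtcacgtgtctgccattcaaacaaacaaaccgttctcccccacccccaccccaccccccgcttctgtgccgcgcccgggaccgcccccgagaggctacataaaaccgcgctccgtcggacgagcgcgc

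Windows were found for 7 of the 9 measured members, and not for Egr1 and Ier2. The core TGACG, which overlaps the full element, occurred in 4 of them (Fos, Fosb, Junb and Dusp1), against 17.8% of all 32851 RefSeq windows of the same length. The full element TGACGTCA was found in 1 (Dusp1), against 1.55% of all windows, and TGACATCA, searched for after the windows had been read, in Jun and Klf6, against 2.93%. TATAAA was found in the Fos window, against 12.4% of all windows, and the Egr site GCGGGGGCG in the Fosb window, against 2.57%. No member window held TGACTCA or TGAGTCA, the AP-1 site itself (4.46% of all windows), or the CArG box bound by serum response factor (1.47%). At shares this low 7 windows cannot show that such sites are lacking, and bases farther upstream were not searched. The Jund window held no match to any motif searched, so no motif could be shared by all called members. Since that window may be misplaced, as given next, called and uncalled members cannot be compared on motifs. Start sites differ between annotations, and the GENCODE start of Junb lies 30 bases and that of Jund 1210 bases downstream of the RefSeq one. The Jund window is therefore not shown, though it is counted among the 7.

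Within the AP-1 genes the calls of the first comparison fell on the Jun family. Jun, Junb and Jund were called higher in the numerator group at an adjusted p under 0.05, by 1.25 to 1.51 on the log2 scale in the authors' deposited table, while Fos and Fosb were not called. At equal totals the same 3 values would be -0.23 for Jun, -0.24 for Junb and 0.02 for Jund. They were the only calls among the 9 members in that comparison (33.3%), against 22.3% of all genes in either direction and 18.8% called higher. Among the 6604 genes whose denominator level lay in the range of the members, 17.1% were called and 12.3% were called higher. A count of 3 in 9 beside these shares does not set the members as a whole apart. The median log2 fold change of the 9 was 0.58 (-0.91 at equal totals), against -0.13 over all genes.

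Jund, the Jun protein most often found in resting cells and the least dependent on a stimulus, had the largest value of the 9. Its derived level was 99.97 CPM in the first numerator group and 37.4 CPM in the second, against 34.98 CPM in the denominator group. On the deposited scale the first numerator group therefore stood far from the second numerator group and the denominator group, which lay close together. In the authors' deposited table its log2 fold change was 1.51 in the first comparison (implied SE 0.28, 95% interval 0.96 to 2.07, adjusted p = 1.1e-06). In the second comparison of the authors' deposited table it was 0.11 (p = 0.761, adjusted p = 1). Jund lay 1.65 above the median gene and higher than 88.2% of genes in the first comparison. An antisense gene, Gm11175, covers 877 bases of the 1668-base Jund transcript in GENCODE, and whether the counting used strand is not stated.

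Jun, the founding member of AP-1 and the usual partner of Fos, had a derived level of 99.7 CPM in the first numerator group and 50.6 CPM in the second, against 41.6 CPM in the denominator group. The authors' deposited table gave it a log2 fold change of 1.26 in the first comparison (implied SE 0.30, 95% interval 0.67 to 1.86, adjusted p = 0.00026). Its value in the second comparison of the authors' deposited table was 0.30, with an interval of -0.32 to 0.92 (p = 0.341, adjusted p = 1). The interval of the second comparison thus spans 0 as well as a rise of close to 0.9.

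Junb, which often counteracts Jun and restrains the growth of myeloid progenitors, had a derived level of 113 CPM in the first numerator group and 47.3 CPM in the second, against 47.7 CPM in the denominator group. The second numerator group and the denominator group were almost level. For Junb the authors' deposited table lists a log2 fold change of 1.25 in the first comparison (implied SE 0.33, 95% interval 0.60 to 1.89, adjusted p = 0.0011), against 0.00 with an adjusted p of 1 in the second. The intervals of Jun, Junb and Jund in the first comparison overlapped one another widely.

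Fos, whose dimers with Jun are more stable than those of Jun alone, had a derived level of 75.4 CPM in the first numerator group and 65.8 CPM in the second, against 51.4 CPM in the denominator group. On the deposited scale both numerator groups lay above the denominator group, but neither difference passed. At equal totals the first-comparison value of Fos would be -0.94. In the authors' deposited table the log2 fold change of Fos was 0.55 in the first comparison (implied SE 0.36, 95% interval -0.16 to 1.26, adjusted p = 0.313). It was 0.36 in the second comparison of the authors' deposited table (95% interval -0.30 to 1.02, adjusted p = 1). A change of the size seen for Junb lies at the upper end of the first interval, so the data do not show that Fos was level. Fosb, which can stand in for Fos, had 24.4 CPM in the first numerator group and 20.0 in the second, against 19.3 in the denominator group, and was called in neither comparison (0.34 and 0.06 in the authors' deposited table). Measured from Fos, the first-comparison log2 fold change was 0.96 larger for Jund, 0.71 larger for Jun, 0.70 larger for Junb and 0.21 smaller for Fosb (-0.21). These differences between genes of the same libraries were not tested, since the table gives no covariance.

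**Figure D1:**
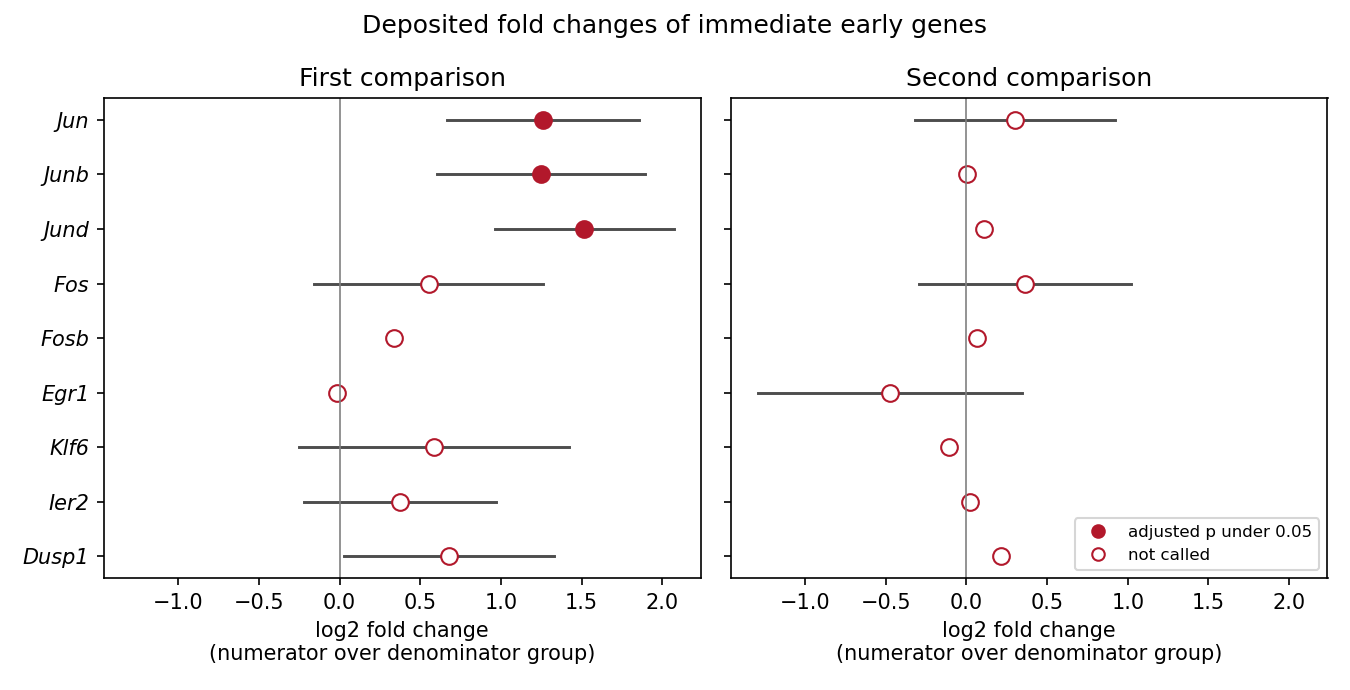
Log2 fold changes of the 9 members in the first (left) and second (right) deposited comparison, with filled points for an adjusted p under 0.05 and bars for the 95% interval worked back from the p-value, drawn only where p was under 0.5. Jun, Junb and Jund lie at 1.25 to 1.51 on the left (at -0.24 to 0.02 if totals were made equal), and on the right all 9 points lie between -0.47 and 0.36.

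The remaining members had smaller values. Egr1, the growth factor-induced zinc finger protein known for driving monocyte genes, was nearly level in the first comparison on the deposited scale. It had 22.4 CPM in the numerator group, against 22.7 CPM in the denominator group. The log2 fold change by the authors' deposited table was -0.02 (adjusted p = 1), and would be -1.51 at equal totals. In the second comparison it had 16.3 CPM in the numerator group, and the authors' deposited table lists -0.47 (95% interval -1.29 to 0.34, adjusted p = 1), which was the lowest value among the members there. On the deposited scale Egr1 was the only member whose derived level was highest in the denominator group.

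Dusp1, the MAP kinase phosphatase, had 53.8 CPM in the first numerator group and 38.8 CPM in the second, against 33.7 CPM in the denominator group. Its log2 fold change of 0.68 in the first comparison of the authors' deposited table (95% interval 0.02 to 1.33) had an unadjusted p of 0.042 and did not pass the adjustment over all genes (adjusted p = 0.142). Klf6, a Krüppel-like factor active in myeloid cells, had 20.6 CPM in the first numerator group and 12.7 CPM in the second, against 13.8 CPM in the denominator group. Its log2 fold change in the first comparison of the authors' deposited table was 0.58 (95% interval -0.25 to 1.42, adjusted p = 0.378).

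Ier2, a nuclear protein of the growth factor response, had 83.7 CPM in the first numerator group and 65.3 CPM in the second, against 64.6 CPM in the denominator group. The authors' deposited table lists a log2 fold change of 0.37 in the first comparison (95% interval -0.22 to 0.97, adjusted p = 0.444), against 0.02 with an adjusted p of 1 in the second. Thus Egr1, Dusp1, Klf6, Ier2, Fos and Fosb were all without a call, and the upper bounds for Dusp1, Klf6 and Fos reach the size measured for Junb.

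**Figure D2:**
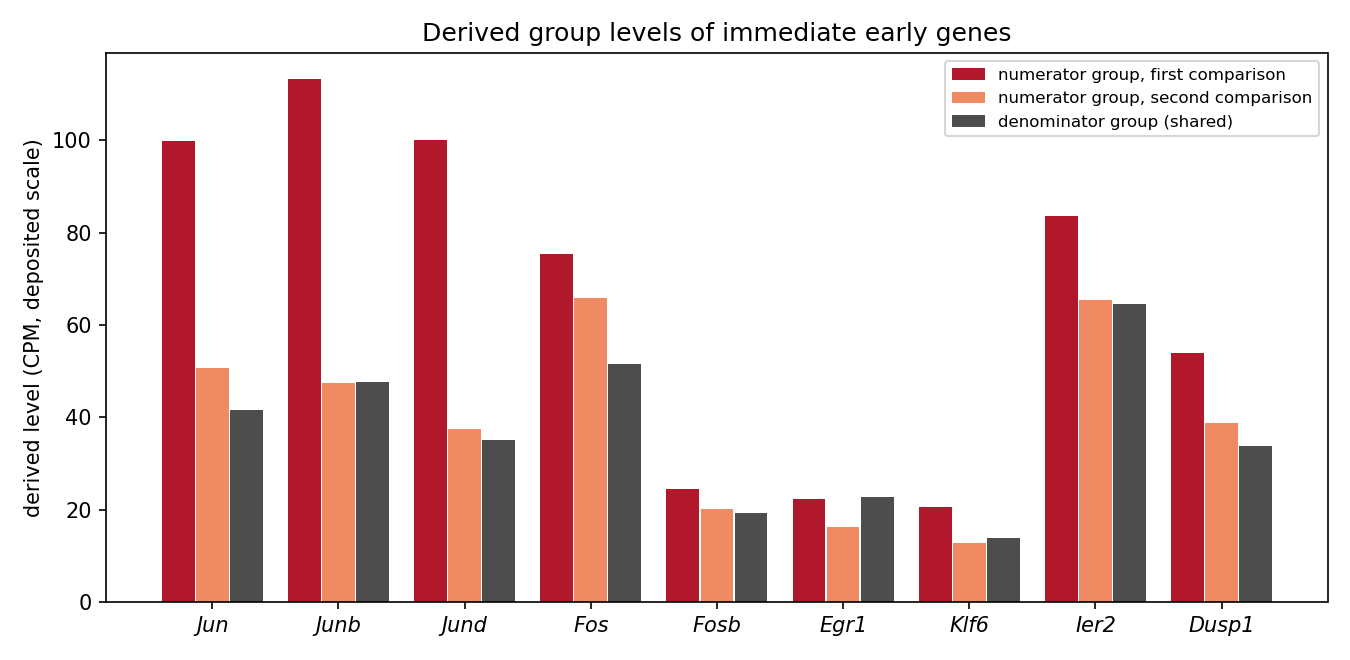
Derived level (CPM on the deposited scale, y axis) of each member in the first numerator group, the second numerator group and the shared denominator group; single derived values without error. The first numerator group stands out for Jun (99.7 CPM), Junb (113 CPM) and Jund (99.97 CPM), whereas for Egr1 it lies at 22.4 CPM beside 22.7 CPM in the denominator group; at equal totals only Jund among the 9 would lie above the denominator group.

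In the second comparison 0 of the 9 members were called by the authors' adjusted p, and 0 had an unadjusted p under 0.05. Over all genes 14 were called (0.109%) and 43 had an unadjusted p under 0.05 (0.336%). Counts of 0 therefore say nothing particular about the members. Their log2 fold changes in the authors' deposited table ran from -0.47 for Egr1 to 0.36 for Fos, with a median of 0.06. Of the 9, 7 were above 0, against 50.4% of all genes and 60.8% of genes in the members' range of denominator level. This difference was not tested. Through the shared denominator group, on the deposited scale, the first numerator group lay above the second by 1.41 for Jund and 1.24 for Junb (log2). The same difference was 0.96 for Jun and 0.19 for Fos. At equal totals the first and second comparison would give 0.02 and 0.15 for Jund, and -0.24 and 0.04 for Junb. Jun would have -0.23 and 0.34, and Fos -0.94 and 0.40. The first numerator group would then lie below the second for each of these genes. No test of that contrast can be had from the table.

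Fold changes in the first comparison depended on the level of the gene, and the members sit where the trend is steep. The running median over genes nearest in denominator level was -0.16 at the level of Jund, 0.02 at that of Jun and 0.14 at that of Junb, but 0.27 at that of Fos and 0.51 at that of Ier2. Relative to genes of like level, the log2 fold change was 1.68 for Jund, 1.25 for Jun, 1.11 for Junb, 1.10 for Klf6, 0.88 for Dusp1, 0.78 for Fosb, 0.40 for Egr1, 0.28 for Fos and -0.13 for Ier2. On this measure 8 of the 9 lay above genes of like level, with Klf6 close to Junb.

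**Figure D3:**
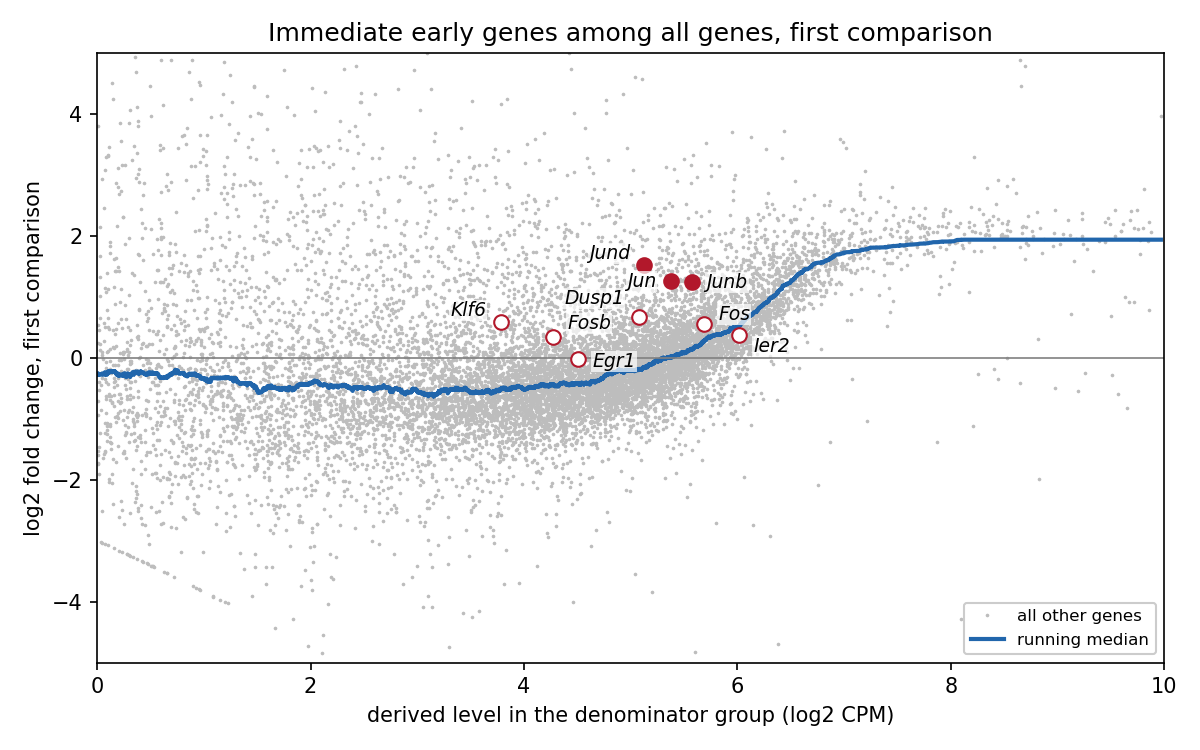
Log2 fold change of the first comparison (y axis) against the derived level in the denominator group (x axis, log2 CPM) for all genes in the plotted range (grey), with the running median over genes of like level (line) and the 9 members (circles, filled where called). Jun, Junb and Jund lie 1.11 to 1.68 above the line and Ier2 lies 0.13 below it (-0.13); at equal totals all points and the line would move down by 1.49 together.

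The members also differ in structure. In GENCODE M21, Jun, Junb, Jund and Ier2 have transcripts of 1 exon, Egr1 of 2 exons, and Fos, Fosb, Dusp1 and Klf6 of 4 exons in the longest coding form. The 3 called members are thus all intronless, and Ier2 is intronless without a call. Of all 321 measured coding genes with 1 exon, 31.8% were called higher in the first comparison, against 18.4% of the 11635 with 2 or more exons. With histone genes left out the share of the 1-exon genes was 20.9% of 258, and within the range of member levels it was 21.2% of 99, against 11.4% of 6287 with 2 or more exons. This split was looked at after the calls were known and was not tested.

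By the distance over the 4 deposited values (fold change and mean level of both comparisons), the genes most like Fos were Khsrp, an mRNA decay factor (distance 0.19), the aminopeptidase gene Rnpep (0.23), Hsph1, a heat shock chaperone (0.24), the insulin-degrading enzyme gene Ide (0.25) and Zmynd19 (0.26). None of the 5 was called in either comparison, but they were picked for values close to those of Fos, which was not called either.

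Of 32 other immediate early genes measured, 13 were called higher and 0 lower in the first comparison (40.6% called, against 22.3% of all genes in either direction and 18.8% called higher; the difference was not tested), with a median of 0.38, against -0.13 over all genes, and at equal totals 3 of the 13 would remain above 0. Zfp36l1, Zfp36l2 and Zfp36, the RNA-binding proteins that speed the decay of AU-rich messages, were all among them, at 1.91, 1.14 and 1.25 in the authors' deposited table (0.42, -0.35 and -0.24 at equal totals). Btg1, an antiproliferative gene, stood at 1.42 in the authors' deposited table (-0.07 at equal totals). The serum- and glucocorticoid-induced kinase gene Sgk1 had 1.98, and the orphan nuclear receptor gene Nr4a1 had 1.46 in the authors' deposited table (0.49 and -0.03 at equal totals). Myc at 0.30, Ier3 at -0.89 and Klf4 at -0.69 in the authors' deposited table were not called. In the second comparison 0 of the 32 were called by the authors' adjusted p and 0 had an unadjusted p under 0.05, and the median was -0.11. Since 0.109% of all genes were called there and 0.336% had an unadjusted p under 0.05, these counts say nothing particular about the list.

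Among 23 measured bZIP partners of AP-1, 6 were called higher (2 of them above 0 at equal totals) and 0 lower, so that 26.1% were called, with a median of 0.15. The share is close to the 22.3% of all genes, and the count says nothing particular about these partners. Maf, a transcription factor of macrophages, stood at 5.13 in the authors' deposited table (3.64 at equal totals), with 61.7 CPM in the first numerator group, against 1.76 CPM in the denominator group. Atf4, the effector of the integrated stress response, stood at 1.23 and Atf1, a CREB-family activator, at 1.24 in the authors' deposited table (-0.27 and -0.25 at equal totals). Fosl2 and Jdp2, further partners of Jun, were not called, at -1.18 and -0.18 in the authors' deposited table.

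Of 29 measured MAP kinases, SRF and SRF cofactors, the signalling layer above the members, 1 was called higher and 2 lower (10.3% called, median -0.25). Over all genes 18.8% were called higher and 3.49% lower, a difference that was not tested. An unadjusted p under 0.05 was reached by 10 of the 29, against 30.8% of all genes. Map2k2, which activates ERK, stood at 0.79 (-0.70 at equal totals), while the ternary complex factor gene Elk3 stood at -1.08 and the RSK2 kinase gene Rps6ka3 at -1.02 in the authors' deposited table. Srf itself, at 0.19 in the authors' deposited table, was not called. Among 14 other dual specificity phosphatases Dusp3 was called higher at 2.36 and Dusp2 lower at -0.99 in the authors' deposited table (0.87 and -2.49 at equal totals). Of 13 further Egr, Klf and Sp factors and Egr corepressors 0 were called by the authors' adjusted p and 1 had an unadjusted p under 0.05, with a median of -0.25. Over all genes 22.3% were called and 30.8% had an unadjusted p under 0.05, and the difference was not tested.

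Of 13 NF-kB feedback genes, 3 were called higher and 0 lower (median 0.42), and this 23.1% lies at the share of all genes called, 22.3%. Cd83, a marker of activated dendritic cells, stood at 4.93, Nfkbia, the inhibitor that NF-kB induces, at 0.81 and Relb at 1.87 in the authors' deposited table (3.44, -0.68 and 0.38 at equal totals). Heat shock genes, which can be induced with immediate early genes in dissociated cells, were called higher for 9 of 12. This 75% stands against 18.8% of all genes called higher, a difference that was not tested. The median was 2.17 (0.68 at equal totals, where all 9 stayed above 0). Hsph1 at 0.40, Dnajb1 at 0.12 and Dnajb4 at -0.14 in the authors' deposited table were not called. Whether dissociation had a part in these values was not tested. Hsp90ab1 at 2.22, Hspa5 at 1.88, Hspe1 at 2.17 and Hspa8 at 2.29 in the authors' deposited table had the smallest p-values. The stress-inducible Hsp70 genes Hspa1a and Hspa1b, near-identical copies whose reads may be split uncertainly, had the largest values of the list, at 3.33 and 3.14 in the authors' deposited table. Relative to genes of like level the median of the heat shock genes was 0.30, with Hspa1a at 3.90, Hspa1b at 3.72 and Dnaja1 at 1.42, and the median of the 9 members was 0.88.

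**Figure D4:**
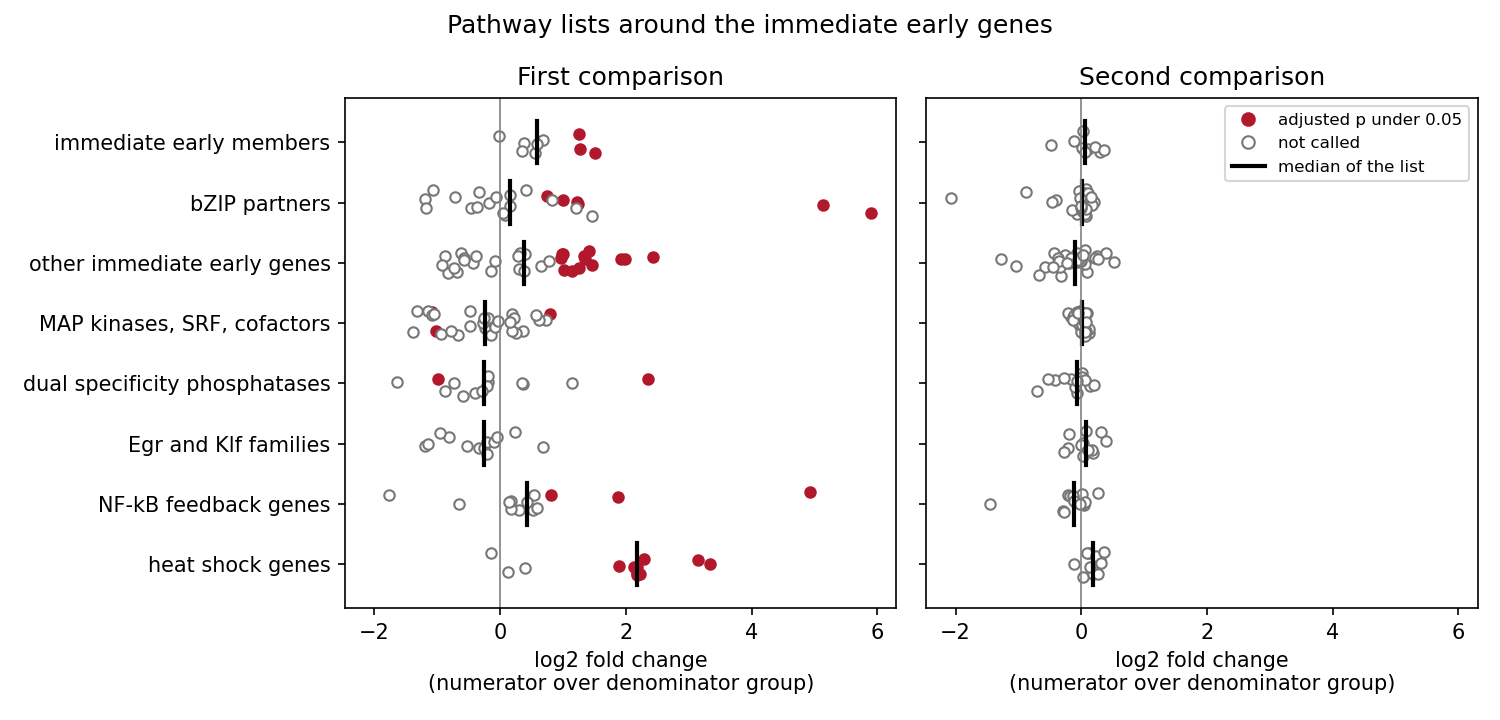
Log2 fold changes of the 9 members and of 7 related gene lists in the first (left) and second (right) comparison, 1 point per gene, filled where called, with a bar at the median of each list. On the left the medians run from -0.25 to 2.17 as deposited and would run from -1.74 to 0.68 at equal totals. On the right 0 genes of these lists were called by the authors' adjusted p, against 0.109% of all genes. An unadjusted p under 0.05 was reached there by 0 of them, against 0.336% of all genes.

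Markers of other cell types moved in the same comparison, in which 18.8% of all genes were called higher and 3.49% lower. All 14 measured resident macrophage markers were called higher, with a median of 4.70 (3.21 at equal totals) and a summed derived level of 5160 CPM in the first numerator group and 166 CPM in the second, against 280 CPM in the denominator group. All 10 megakaryocyte markers were called higher as well, with a summed level of 1774 CPM in the first numerator group and 157 CPM in the second, against 220 CPM in the denominator group. Of 8 neutrophil markers 5 were called higher, summing to 1690 CPM in the first numerator group and 376 CPM in the second, against 335 CPM in the denominator group. At equal totals every called marker of these 3 lists would stay above 0.

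Marker lists of other lineages split, were lower or had no call. Their counts were not tested against the 18.8% of all genes called higher and the 3.49% called lower. Sums are on the deposited scale, and equal totals would lower those of the first numerator group against the denominator group. Monocyte markers were called higher for 3 of 9 (2 of them above 0 at equal totals) and lower for 3. Their median was -0.37 (-1.86 at equal totals). They summed to 3118 CPM in the first numerator group, led by Ly6c2 at 1544 CPM and Ly6c1 at 920 CPM. The sum was 1775 CPM in the second numerator group, against 1739 CPM in the denominator group. Erythroid markers were called higher for 2 of 8 and lower for 2, with sums of 16329 CPM in the first numerator group and 1293 CPM in the second, against 1290 CPM in the denominator group, led by globin. T and NK cell markers were called higher for 2 of 6 (1 above 0 at equal totals) and lower for 3. Their median was -2.15 (-3.64 at equal totals). They summed to 248 CPM in the first numerator group, led by Nkg7 at 202 CPM. The sum was 138 CPM in the second numerator group, against 150 CPM in the denominator group. B cell markers were called lower for 7 of 9, with sums of 189 CPM in the first numerator group and 366 CPM in the second, against 429 CPM in the denominator group. Stromal and endothelial markers had 0 calls among 5 by the authors' adjusted p and 0 at an unadjusted p under 0.05, against 30.8% of all genes. Their sums were 39.6 CPM in the first numerator group and 48.2 CPM in the second, against 51.4 CPM in the denominator group. The part of these cell types in the values of Jun, Junb and Jund was not tested. In bulk RNA a change in the cells present and a change in RNA per cell cannot be told apart.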

How the data were processed

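RNA libraries were built from 0.1 ug of total RNA with an Illumina TruSeq kit, per the labels' protocols. Bowtie 0.12.2 and build mm8 appear in the submitters' processing notes without a role; for the counter, annotation and test program the sources used here give no name. The 10 libraries were grouped by title, but the deposited table has no column per library, so depth is unknown and no test across genes could be fitted here. Its log2 fold changes, its mean log2 CPM and its p-values, raw and adjusted, were used as deposited by the authors, and the adjusted values equal a Benjamini-Hochberg adjustment over all 12791 genes. A gene was called at an adjusted p under 0.05.

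With w the weight of the numerator group, the denominator level is the mean CPM divided by w times the fold plus 1 minus w. Weights of 0.48 (first) and 0.59 (second) gave the best match of the 2 denominator levels over 9044 genes above 3 log2 CPM, with a median absolute deviation of 0.002 (log2). Printed denominator levels come from the first comparison. The implied SE is the log2 fold change over the normal quantile of its two-sided p. Weights, adjustment and running median were tested on simulated data. Exon counts use GENCODE M21 (93.5% of genes matched), and promoter windows use RefSeq GRCm38.p6; the deposited build differs, so no coordinates were joined. Python 3.11.15, numpy 2.4.6, scipy 1.17.1 and statsmodels 0.14.6 were used.

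The members and lists were chosen with earlier results of these data known. Named genes are the members, the 4 smallest p-values among called genes of each list and the 5 genes nearest to Fos; other names were chosen after their values were seen, as were TGACATCA and the exon classes. The values of 1 gene of the bZIP list are not reported here. Alternatives were other thresholds and adjustments, 3 centrings of the fold changes and other group weights.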

Additional observations from a re-analysis of the deposited data

How the results depend on the processing

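The count of 3 called members in the first comparison, and of 0 in the second by the authors' adjusted p, was the same at thresholds of 0.01 and 0.10, with the adjustment run over genes of at least 1 CPM only, and with a Benjamini-Yekutieli adjustment. At equal summed CPM in both groups the first-comparison values of Jun (-0.23) and Junb (-0.24) changed sign, and the median of the members was -0.91; the deposited p-values test the deposited scale only, and the cause of the unequal totals was not tested. The median of the members, 0.58 as deposited, was 0.72 after centring on the median gene and 0.88 after centring on genes of like level, where Fosb (0.78), Egr1 (0.40), Klf6 (1.10) and Ier2 (-0.13), none of them called, moved by more than the implied SE (for Fosb and Egr1, which have none, the median SE of the members) and Ier2 and Egr1 changed sign. At a threshold of 0.01 the calls in the first comparison numbered 0 for MAP kinases, SRF and cofactors and 1 for NF-kB feedback genes, and the other list counts stayed within 1.5 times. Derived levels changed by at most 3.07% with equal weights and by at most 1.2% with the denominator group taken from the second comparison. The 1.2% is no separate check, since the weights were fitted to make the 2 denominator levels match. No paired analysis was possible because the table holds no value per library; for the same reason no replicate could be left out, and the planned edgeR and DESeq2 fits were not run.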
